A study of Homo sapiens with 15 samples.

Results

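The laminin chains and the proteins that link laminin to the rest of the basement membrane were examined through cardiac differentiation of human embryonic stem cells. The set held 10 genes, chosen by symbol from the 60605 genes of the deposited table. They were the laminin alpha chains LAMA1, LAMA2, LAMA4 and LAMA5, the beta chains LAMB1 and LAMB2, the gamma chain LAMC1, the nidogens NID1 and NID2, and HSPG2, which encodes perlecan. All 10 passed the filter on low values, which kept genes reaching 1 FPKM (fragments counted, scaled by exonic length and library total) in any of the libraries.

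Laminins are cross-shaped heterotrimers of 1 alpha, 1 beta and 1 gamma chain, and they are the first scaffold laid down in a basement membrane. Nidogens bind the gamma chain and collagen IV, and perlecan, a large heparan sulphate proteoglycan, joins the network and holds growth factors. The alpha chain carries the main binding sites for integrins and dystroglycan, so a change of alpha chain changes which receptors a membrane can engage. LAMA1 is the alpha chain of early embryonic basement membranes, LAMA5 that of most epithelia and of laminins used to culture pluripotent cells, LAMA2 that of muscle fibres, and LAMA4 that of blood vessels and heart.

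The data were bulk RNA sequencing of H1, an established human embryonic stem cell line, in 15 libraries. All cultures received CHIR99021, an activator of WNT signalling, on day 0 and insulin on day 1, and days 0, 1 and 2 had 1 library each, shared by the arms. From day 2 there were 3 arms with 1 library each on days 3, 5, 7 and 10. The NP-ctrl arm was left undisturbed without inducer (NP, not passaged). The NP-IWP2 arm was likewise not passaged and was treated on days 2 to 4 with IWP2, which blocks the secretion of WNT proteins. The passaged cells were dissociated with EDTA on day 2 and replated on Matrigel with the ROCK inhibitor Y27632 and no WNT inhibitor. Passaging therefore joined dissociation, a lower density, a fresh surface and a drug, and Matrigel is itself rich in laminin, which RNA sequencing does not measure. No group had a second culture. Intervals below cover counting error only, and tests over days 3 to 10 measure how far values scatter between days in 1 culture series of 1 line.

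Total counts ran from 13254723 to 20250115 per library, and the 10 genes together took between 0.115% (day 0) and 0.723% (NP-ctrl day 7) of them. The passaged libraries of days 3 and 10 stood apart in the share of mitochondrial counts, at 1.53% and 10.3% against 3.71% to 6.14% in the others. The summed FPKM of 4 pluripotency markers fell from 969 on day 0 to between 6.57 and 15.2 on day 10. On day 10 that of 8 cardiomyocyte markers was 551 (NP-ctrl), 1698 (NP-IWP2) and 3938 (passaged). By the edgeR test used below, 6 of the 8 had a rising trend over days, where 15.9% of all genes tested did.

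Promoter sequence was taken from RefSeq (GRCh38.p14) as the 250 bases before the gene start that RefSeq gives, and 9 of the 10 genes matched. Against the gene coordinates of the deposited table, the windows of LAMA2, LAMA5, LAMC1 and HSPG2 lie wholly before the gene, that of LAMA4 lies wholly inside it, and those of LAMB1, LAMB2, NID1 and NID2 reach into it. The promoters of LAMA2 and LAMA5 are shown because these alpha chains moved in opposite directions between the arms by day 10. Capitals mark motif letters found on either strand, which are CATTCC (a motif of TEAD factors) in LAMA2 at chr6:128882888-128883137 on the plus strand, and GGGCGG (the GC box) in LAMA5 at chr20:62367313-62367562 on the minus strand.
LAMA2: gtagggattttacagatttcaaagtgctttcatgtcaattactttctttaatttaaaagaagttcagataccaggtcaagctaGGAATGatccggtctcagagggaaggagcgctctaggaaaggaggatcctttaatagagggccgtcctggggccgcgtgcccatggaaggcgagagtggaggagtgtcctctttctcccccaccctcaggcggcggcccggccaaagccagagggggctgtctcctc
LAMA5: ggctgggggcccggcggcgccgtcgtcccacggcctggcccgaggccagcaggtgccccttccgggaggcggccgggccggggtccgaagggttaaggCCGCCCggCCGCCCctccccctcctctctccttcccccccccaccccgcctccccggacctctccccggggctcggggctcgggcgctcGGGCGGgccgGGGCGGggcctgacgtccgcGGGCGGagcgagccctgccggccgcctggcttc
The GC content was 53.2% for LAMA2 and 82.8% for LAMA5, and the median of all 35116 promoters in the table was 58.0%. GGGCGG was present in 7 of the 9 promoters (LAMA5, LAMB1, LAMB2, LAMC1, NID1, NID2 and HSPG2) and in 42.6% of all promoters. LAMA2 and LAMA4, the remaining genes of the 9, held none. CATTCC was present in LAMA2 alone of the 9 and in 11.9% of all promoters, AGATAA (a motif of GATA factors) in LAMA4 alone and in 9.17% of all, and CCAAT in NID1 and NID2 and in 32.0% of all. TATAAA, the TATA box, was in none of the 9 and in 10.7% of all promoters. The E-box motif CACGTG was also in none of the 9 and in 6.34% of all, and so was the AP-1 motif TGACTCA, which was in 4.2% of all.

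The first question was which members changed while cells left pluripotency. On day 0 all members but LAMA2, LAMA4 and NID2 were above an FPKM of 5, with LAMC1 highest at 33.2. Over days 0, 1 and 2 the FPKM of LAMC1 was 33.2, 49.8 and 65.5, that of HSPG2 6.86, 12.65 and 23.05, and that of NID2 0.95, 1.03 and 3.37. Each of these 3 genes was highest on day 2. LAMB2, the beta chain of synaptic and kidney laminins, was at 8.65, 5.02 and 8.65, while LAMB1, the beta chain of early embryonic laminin, was at 10.4, 19.4 and 18.15. Counting a gene as changed when log2(FPKM + 1) differed by at least 1 between 2 libraries, no member changed from day 0 to day 1, when 6.74% of the 21206 genes tested did. From day 0 to day 2, NID2 was 3.55-fold higher (95% interval 2.86 to 4.44) and HSPG2 3.36-fold higher (3.2 to 3.53), and these were the 2 members counted, against 11.7% of genes. The median difference of the 10 members was 0.67 on that scale, and of all genes 0.01. The log2(FPKM + 1) scale understates the change of low genes such as LAMA2, which was 3.12-fold higher (2.58 to 3.79) and was not counted.

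**Figure D1:**
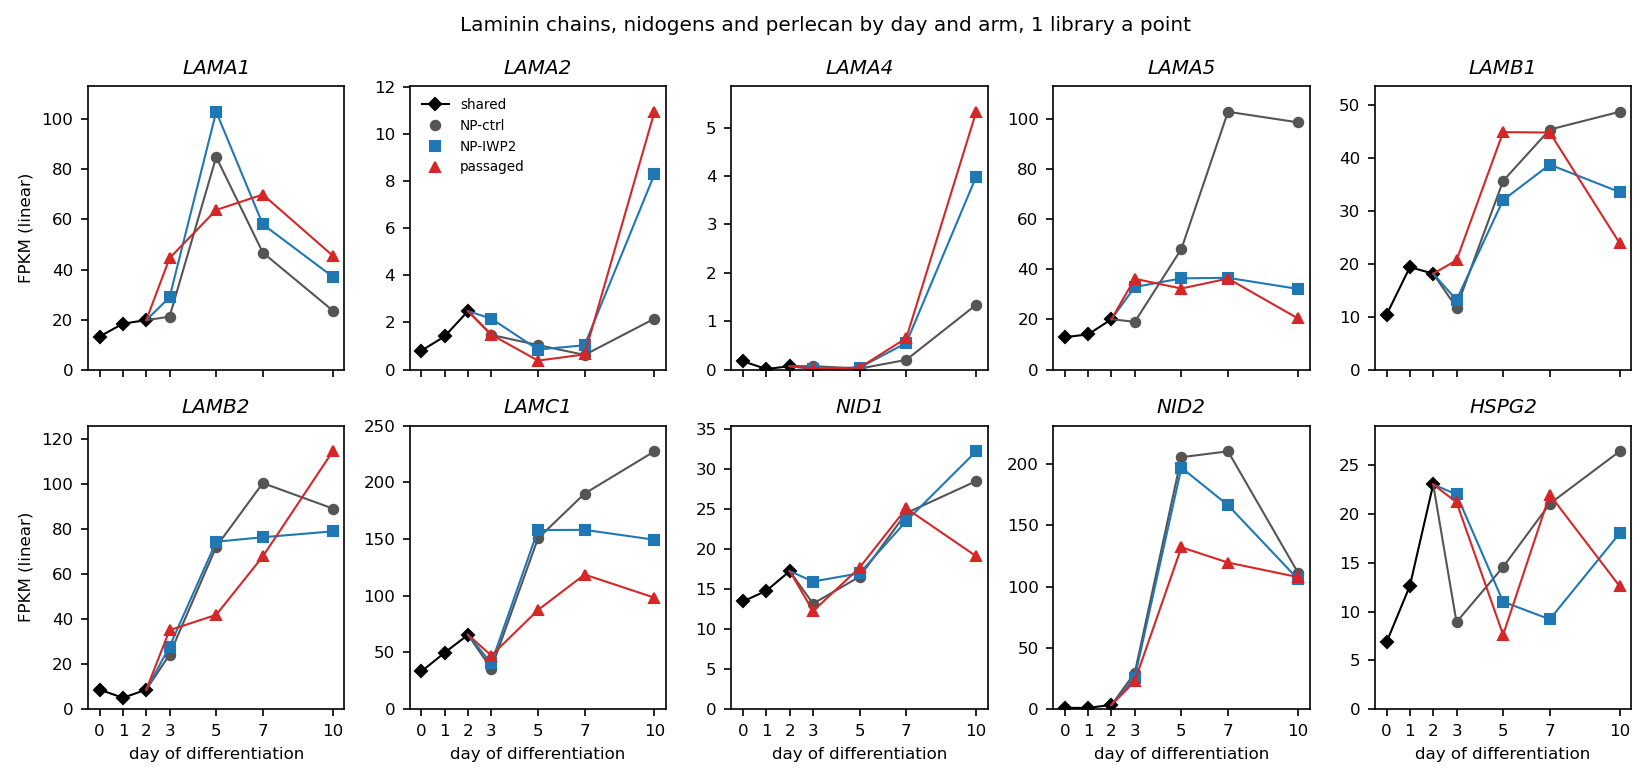
FPKM (linear axes starting at 0) of the 10 genes against the day of differentiation, with 1 library a point and no error bars because no day had a second culture. Black diamonds are the shared libraries, grey circles NP-ctrl, blue squares NP-IWP2 and red triangles passaged cells. LAMA5 in NP-ctrl reached 103 on day 7 while the other arms were at 36.6 and 36.3, and LAMA2 and LAMA4 were highest in passaged cells on day 10, at 10.9 and 5.33.

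LAMA1 (ENSG00000101680, chromosome 18, 6941742 to 7117797, minus strand) was the highest alpha chain in 11 of the 15 libraries with deposited gene lengths. It was at 13.2, 18.35 and 19.8 FPKM on days 0, 1 and 2. On days 3, 5, 7 and 10 it was at 21.1, 85.0, 46.75 and 23.6 in NP-ctrl, at 28.9, 103, 58.1 and 37.1 in NP-IWP2, and at 44.5, 63.8, 70.0 and 45.5 in passaged cells. Both static arms peaked on day 5, and passaged cells on day 7. On day 3 passaged cells were 2.11-fold above NP-ctrl (2.04 to 2.18), and on day 10 they were 1.93-fold above it (1.87 to 2.00). On day 5 they were below both static arms. Fitted over the 4 days, the LAMA1 difference of passaged cells from NP-ctrl was 0.63 on the log2 scale (SE 0.249), with an adjusted p of 0.189 in the quasi-likelihood test of edgeR.

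LAMA5 (ENSG00000130702, chromosome 20, 62307955 to 62367312, minus strand) had the largest difference in log2(FPKM + 1) between arms on a single day among the 10 members. It was at 12.9, 14.0 and 20.1 FPKM on days 0, 1 and 2. In NP-ctrl it was at 19.0, 48.1, 102.76 and 98.55 on days 3, 5, 7 and 10. In NP-IWP2 it was at 32.9, 36.35, 36.6 and 32.1, and in passaged cells at 36.2, 32.3, 36.3 and 20.4. NP-ctrl was the lowest arm on day 3 and the highest on days 5, 7 and 10, and the other arms stayed between 20.4 and 36.6 on all 4 days. Relative to NP-ctrl, LAMA5 in passaged cells was 1.9-fold higher on day 3 (1.83 to 1.98), 2.83-fold lower on day 7 (2.76 to 2.91) and 4.84-fold lower on day 10 (4.68 to 5.00). NP-IWP2 was 2.81-fold below NP-ctrl on day 7 (2.74 to 2.88) and 3.07-fold below it on day 10 (2.98 to 3.15). The gene overlaps ADRM1 on the opposite strand, which had a median of 973 counts against 7077 for LAMA5, and whether counting used the strand was not stated.

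LAMA2 (ENSG00000196569, chromosome 6, 128883138 to 129516566, plus strand) was low until day 7 and rose on day 10. It was at 0.80, 1.41 and 2.48 FPKM on days 0, 1 and 2. On days 3, 5, 7 and 10 it was at 1.47, 1.04, 0.62 and 2.16 in NP-ctrl, at 2.16, 0.85, 1.03 and 8.29 in NP-IWP2, and at 1.48, 0.38, 0.64 and 10.9 in passaged cells. All arms were highest on day 10, and NP-ctrl was then still below the day 2 level of 2.48. On day 10 passaged cells were 5.07-fold above NP-ctrl (4.48 to 5.75) and NP-IWP2 was 3.84-fold above it (3.39 to 4.37).

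LAMA4 (ENSG00000112769, chromosome 6, 112107931 to 112254939, minus strand) was near the counting floor on most days. Its counts ran from 2 to 972 with a median of 17, and 3 counts corresponded to an FPKM of 0.0124 to 0.0189. It was at 0.17, 0.01 and 0.07 FPKM on days 0, 1 and 2. On days 3, 5, 7 and 10 it was at 0.07, 0.02, 0.20 and 1.34 in NP-ctrl, at 0.01, 0.04, 0.55 and 3.99 in NP-IWP2, and at 0.02, 0.04, 0.65 and 5.33 in passaged cells. All arms were highest on day 10, in the order passaged, NP-IWP2 and NP-ctrl. On that day passaged cells were 3.98-fold (3.43 to 4.64) and NP-IWP2 2.98-fold (2.56 to 3.49) above NP-ctrl.

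These changes altered the mix of alpha chains. Of the summed FPKM of the 4 alpha chains on day 10, LAMA5 held 78.4% (NP-ctrl), 39.4% (NP-IWP2) and 24.8% (passaged). LAMA1 held 18.8%, 45.5% and 55.4%. LAMA2 held 1.72%, 10.2% and 13.3%, and LAMA4 held 1.07%, 4.90% and 6.49%. On day 5 LAMA1 held the larger part in all arms, at 63.4%, 73.5% and 66.1%. In NP-ctrl LAMA1 gave way to LAMA5 between days 5 and 7 (63.4% to 31.1%), and in the other arms it did not, with 60.4% (NP-IWP2) and 65.1% (passaged) on day 7. LAMA5 was the highest alpha chain in only 4 libraries, which were day 2, NP-IWP2 day 3, and NP-ctrl days 7 and 10. On day 2 its share was 47.4% against 46.6% for LAMA1, with approximate 95% half-widths (normal approximation to the counting error of each chain) of 0.874 and 0.868 percentage points, so these did not differ beyond counting error. Shares between genes depend on the length each is divided by. With the length of the MANE Select transcript in place of all annotated exons, an alternative chosen after seeing the data, the day 10 share of LAMA5 was 74.0%, 34.4% and 21.1% in the same order of arms. With that length LAMA1 was above LAMA5 on day 2 (53.8% against 41.6%) and on NP-IWP2 day 3 (52.2% against 45.2%). LAMA5 was still the highest on NP-ctrl days 7 and 10.

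**Figure D2:**
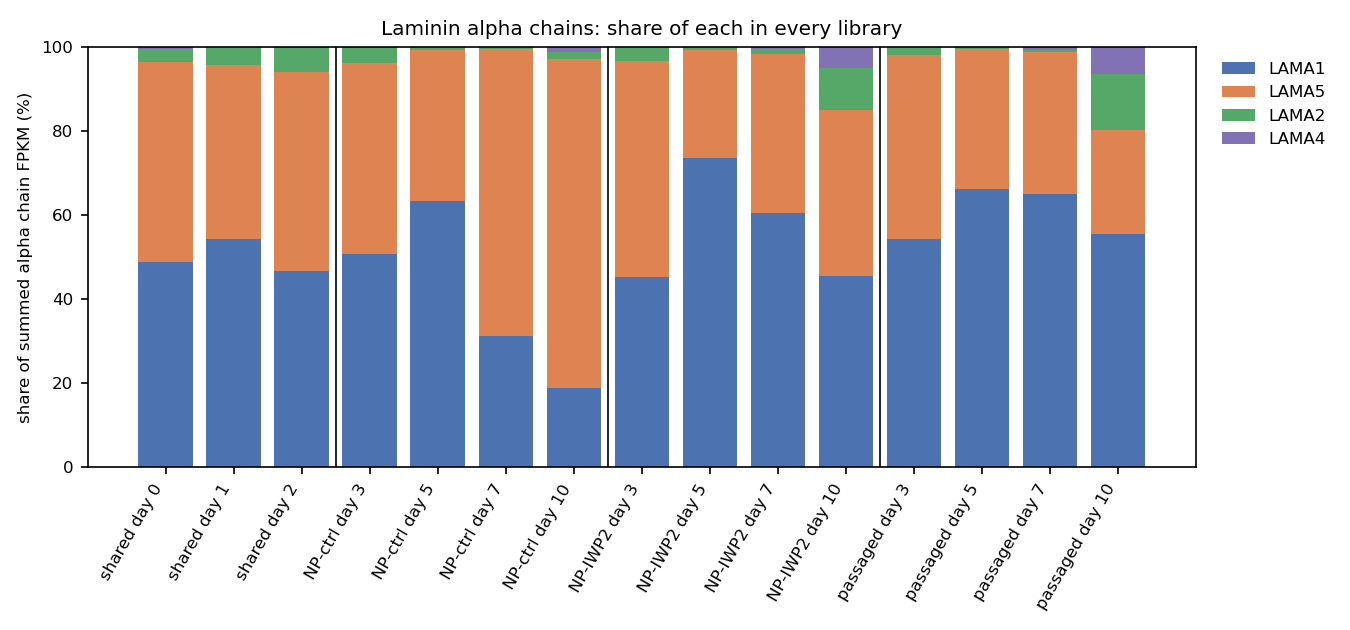
Stacked bars of the share (%) of LAMA1, LAMA5, LAMA2 and LAMA4 in the summed FPKM of these alpha chains, 1 bar a library, with black lines between the shared days and the 3 arms. LAMA5 fills 68.4% and 78.4% of the last 2 NP-ctrl bars, and LAMA2 and LAMA4 are visible mainly in the last bars of NP-IWP2 and passaged cells.

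Among the beta chains, LAMB1 (ENSG00000091136, chromosome 7, 107923799 to 108003213, minus strand) was at 11.7, 35.7, 45.4 and 48.8 FPKM on days 3, 5, 7 and 10 in NP-ctrl. It was at 13.2, 32.1, 38.8 and 33.6 in NP-IWP2 and at 20.7, 45.0, 44.9 and 23.9 in passaged cells. Passaged cells were the highest arm on days 3 and 5 and the lowest on day 10, when they were 2.04-fold below NP-ctrl (1.98 to 2.10). LAMB1 overlaps DLD on the opposite strand (median of 1557 counts against 8438). LAMB2 (ENSG00000172037, chromosome 3, 49121114 to 49133118, minus strand) was at 24.2, 72.2, 100.6 and 89.3 in NP-ctrl, at 27.8, 74.5, 76.5 and 79.1 in NP-IWP2, and at 35.1, 41.9, 67.9 and 114.71 in passaged cells. From day 2 to day 10 it rose 10.3-fold in NP-ctrl (9.72 to 11), 9.15-fold in NP-IWP2 (8.61 to 9.72) and 13.3-fold in passaged cells (12.5 to 14.1).

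The ratio of LAMB2 to LAMB1 was 0.834, 0.259 and 0.476 on days 0, 1 and 2. It lay between 1.83 and 2.35 in all 8 static libraries of days 3 to 10. In passaged cells it was 1.70 (1.62 to 1.77) on day 3, 0.933 (0.901 to 0.965) on day 5, 1.51 (1.47 to 1.56) on day 7 and 4.80 (4.66 to 4.94) on day 10. The static arms kept close ratios through the course, and passaged cells were below them on days 3, 5 and 7 and above them on day 10. Which beta chain was the more abundant could not be settled in most libraries, where it depended on the gene length used. Under both lengths described here LAMB1 was above LAMB2 on days 0, 1 and 2 and in passaged cells on day 5. The deposited length of LAMB1, 18592 bases, is 3.29 times that of its MANE Select transcript, and with the latter LAMB2 exceeded LAMB1 in 1 library instead of 11, passaged day 10 (ratio 1.76). The order of the libraries within this ratio is the same under both lengths.

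**Figure D3:**
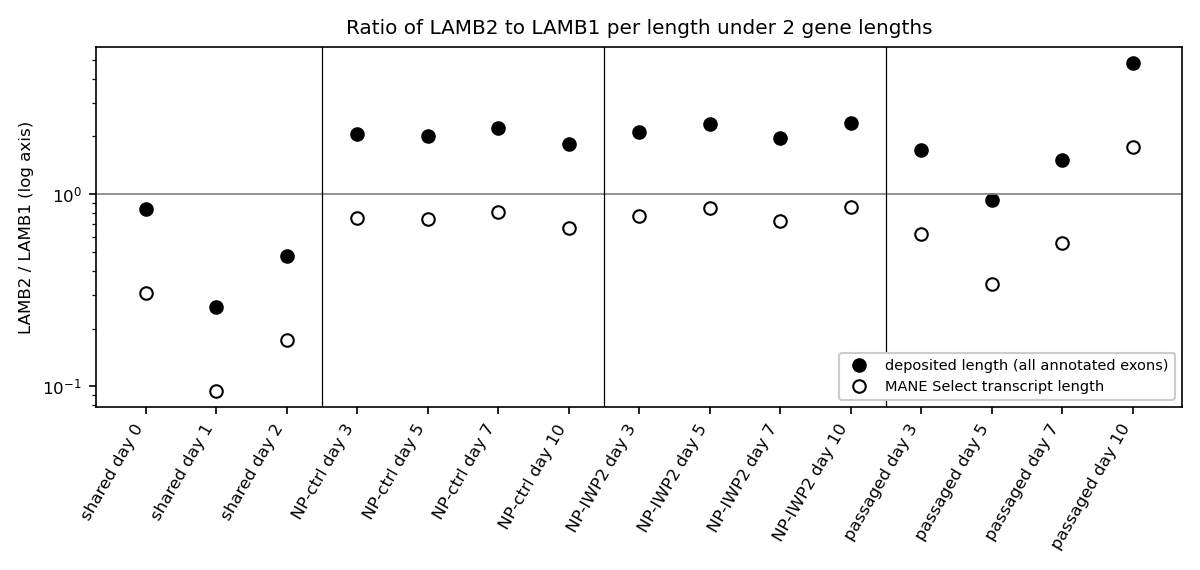
Ratio of LAMB2 to LAMB1 per length (log axis) in each of the 15 libraries, with filled circles for the deposited gene lengths and open circles for MANE Select transcript lengths, and black lines between the shared days and the arms. The 8 static libraries lie between 1.83 and 2.35 with deposited lengths, and passaged cells run from 0.933 on day 5 to 4.80 on day 10.

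LAMC1 (ENSG00000135862, chromosome 1, 183023420 to 183145592, plus strand), the gamma chain of most laminins, was at 65.5 FPKM on day 2 and lower on day 3 in all arms, at 35.7 (NP-ctrl), 40.4 (NP-IWP2) and 47.2 (passaged). On days 5, 7 and 10 it was at 150.49, 190.07 and 227 in NP-ctrl, at 157.9, 158.12 and 149.38 in NP-IWP2, and at 87.35, 119 and 98.3 in passaged cells. Passaged cells were the lowest arm on each of these 3 days. They were 1.72-fold below NP-ctrl on day 5 (1.68 to 1.76), 1.60-fold on day 7 (1.57 to 1.64) and 2.31-fold on day 10 (2.27 to 2.36). Fitted over the 4 days, the difference of passaged cells from NP-ctrl was -0.51 on the log2 scale (SE 0.232, edgeR adjusted p 0.260). LAMC1 was above the sum of the member alpha chains in 11 of 15 libraries with deposited lengths and in 5 with MANE Select lengths, so the balance of chains is not given further.

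The nidogens behaved differently from each other. NID2 (ENSG00000087303, chromosome 14, 52004803 to 52069228, minus strand) went from 3.37 FPKM on day 2 to 29.45, 205.63, 210.42 and 111 on days 3, 5, 7 and 10 in NP-ctrl. It was at 25.8, 197, 166 and 106 in NP-IWP2 and at 22.7, 132, 119.59 and 108 in passaged cells. From day 2 to day 5 this was a 61.0-fold rise in NP-ctrl (55.5 to 67.3), 58.5-fold in NP-IWP2 (53.2 to 64.5) and 39.2-fold in passaged cells (35.6 to 43.2). Passaged cells were below both static arms on days 5 and 7, and on day 10 all arms lay between 106 and 111. Its coordinates are as in the deposited table and differ from those of GENCODE release 44, and it overlaps RTRAF on the opposite strand (median of 2913 counts). NID1 (ENSG00000116962, chromosome 1, 235975830 to 236065109, minus strand) stayed between 12.2 and 32.2 in all 15 libraries. It was at 13.5, 14.8 and 17.2 on days 0, 1 and 2, and then at 13.2, 16.55, 24.5 and 28.5 on days 3, 5, 7 and 10 in NP-ctrl. NP-IWP2 had 15.9, 17.0, 23.5 and 32.2, and passaged cells had 12.2, 17.7, 25.1 and 19.1. Of the arms, only passaged cells were lower on day 10 than on day 7. The ratio of NID2 to NID1 went from 0.0706 on day 0 to 12.4 (NP-ctrl), 11.6 (NP-IWP2) and 7.47 (passaged) on day 5.

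HSPG2 (ENSG00000142798, chromosome 1, 21822244 to 21937310, minus strand) had no common course. On days 3, 5, 7 and 10 it was at 8.93, 14.6, 21.1 and 26.45 FPKM in NP-ctrl, at 22.0, 11.02, 9.21 and 18.0 in NP-IWP2, and at 21.2, 7.62, 22.0 and 12.6 in passaged cells. On day 3 NP-ctrl had dropped 2.58-fold from day 2 (2.47 to 2.70), while the other arms were near their day 2 level of 23.05. NP-ctrl was the lowest arm on day 3 and the highest on days 5 and 10. Passaged cells were 2.38-fold above NP-ctrl on day 3 (2.27 to 2.49) and 2.10-fold below it on day 10 (2.01 to 2.19).

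Counts of members changed by at least 1 in log2(FPKM + 1) were then set beside those of all genes. In passaged cells relative to NP-ctrl, LAMA1 and HSPG2 were higher on day 3 (8.49% of genes changed), no member changed on day 5 (8.16%), LAMA5 was lower on day 7 (12.6%), and on day 10 LAMA2 and LAMA4 were higher while LAMA5, LAMC1 and HSPG2 were lower (17.4%). The median difference of the 10 members was 0.46, -0.56, 0.00 and -0.30 on these days, and that of all genes 0.03, 0.00, -0.07 and -0.09. Day 10 was thus the day with the most members changed, 5 of 10, and LAMB1 lay just outside the limit there. With median-of-ratios scaling in place of library totals the 5 were 3 higher and 2 lower instead of 2 higher and 3 lower, since LAMA1 (1.1) entered and HSPG2 (-0.83) left. Between NP-IWP2 and NP-ctrl, HSPG2 was higher on day 3 (4.15%), none changed on day 5 (2.97%), LAMA5 and HSPG2 were lower on day 7 (7.26%), and LAMA2 and LAMA4 were higher and LAMA5 lower on day 10 (9.35%). Both comparisons share the NP-ctrl libraries. Between passaged cells and NP-IWP2, HSPG2 was higher on day 7 (6.69%), and no member changed on day 3 (8.70%), day 5 (7.51%) or day 10 (10.1%).

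Over days 3 to 10 an arm effect was fitted with day as a block. None of the 10 members passed an adjusted p of 0.05 in any of the 3 contrasts with edgeR, and none did with DESeq2 or limma. The share of genes tested that passed was 4.40% for passaged cells against NP-ctrl, 1.33% between passaged cells and NP-IWP2 and 0.0189% between NP-IWP2 and NP-ctrl. At an unadjusted p under 0.05, 4 members (LAMA1, LAMA5, LAMC1 and NID2) differed for passaged cells against NP-ctrl, and 0 in the other contrasts. Of the 21206 genes tested, 4062 were under that p for passaged cells against NP-ctrl. The number was 2726 between passaged cells and NP-IWP2 and 1009 between NP-IWP2 and NP-ctrl. Without day 3, LAMA4 (1.88 higher on the log2 scale, SE 0.263, edgeR adjusted p 0.00206), LAMA5 (-1.38, SE 0.273, adjusted p 0.0116) and LAMC1 (-0.79, SE 0.191, adjusted p 0.0271) passed between passaged cells and NP-ctrl. In that fit 2373 of the 21206 genes tested passed, against 933 with all days. An arm effect assumes the same difference on each day, whereas between passaged cells and NP-ctrl the sign of the difference changed between days for every member but NID2.

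The day trend common to the arms, in log2 per day, passed for 4 of 10 members, all rising, where 33.0% of genes passed in either direction and 15.9% rose. LAMA4 rose by 1.03 per day (SE 0.119, edgeR adjusted p 1.68e-04), LAMB2 by 0.24 (SE 0.0536, adjusted p 0.00556), LAMC1 by 0.23 (SE 0.0743, adjusted p 0.0310) and NID1 by 0.15 (SE 0.0281, adjusted p 0.00187). LAMA4 reached the filter limit of 1 FPKM only on day 10, at 1.34 (NP-ctrl), 3.99 (NP-IWP2) and 5.33 (passaged). It was thus tested only because it was high on the last day, so its rise is partly built in by the filter. LAMA2 had a slope of 0.31 and an edgeR adjusted p of 0.0546, and LAMB1 0.16 and 0.107. For the same trend DESeq2 called 6 members and limma 4, where 7957 and 6969 of the 21206 genes tested passed. LAMA1, LAMA5, NID2 and HSPG2 had slopes between -0.03 and 0.18. The trend of 3 of these genes rested on day 3, since without it LAMB2 (0.13 per day, edgeR adjusted p 0.152), LAMC1 (0.05, adjusted p 0.454) and NID1 (0.12, adjusted p 0.0705) no longer passed. LAMC1 was also lost without day 7 (0.22, adjusted p 0.0790), and LAMA4 kept its trend in every case.

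The arm-by-day trend asks whether the difference between 2 arms drifted over days 3 to 10. Between passaged cells and NP-ctrl it passed for 2 of 10 members, both drifting lower in passaged cells, where 6.15% of genes passed and 3.64% drifted lower. LAMA5 drifted by -0.41 log2 per day (SE 0.0707, edgeR adjusted p 0.0120), and its difference in log2(FPKM + 1) was 0.89, -0.56, -1.48 and -2.22 on days 3, 5, 7 and 10. LAMB1 drifted by -0.22 per day (SE 0.0532, adjusted p 0.0407), with differences of 0.77, 0.32, -0.02 and -1.0. LAMA2 (0.44 per day, adjusted p 0.0566) and LAMA4 (0.49, adjusted p 0.0643) did not pass. Without day 3 LAMA5 no longer passed (-0.29 per day, edgeR adjusted p 0.0864), and LAMB1 was lost when any 1 day was left out (adjusted p from 0.0777 to 0.536). Between passaged cells and NP-IWP2 no member passed, where 1.02% of genes did. LAMB1 was under an unadjusted p of 0.05 in that contrast, as were 2701 genes in all. Between NP-IWP2 and NP-ctrl 0 genes passed with edgeR, 0% of those tested. There 1990 genes were under an unadjusted p of 0.05, LAMA4 and LAMA5 among them, and DESeq2 called 89 genes and limma 0. LAMA5 drifted by -0.33 per day in that contrast (SE 0.0698, edgeR adjusted p 0.356), and it was the single member that DESeq2 called.

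**Figure D4:**
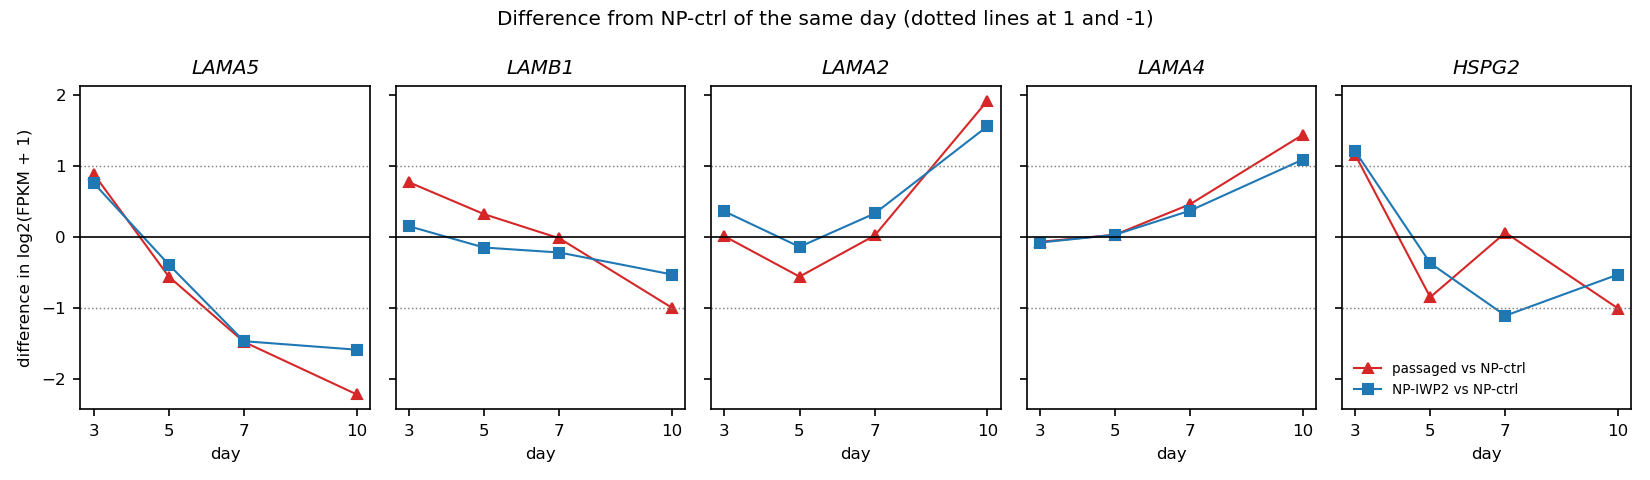
Difference from NP-ctrl of the same day in log2(FPKM + 1) for LAMA5, LAMB1, LAMA2, LAMA4 and HSPG2, with red triangles for passaged cells and blue squares for NP-IWP2, 1 pair of libraries a point, and dotted lines at 1 and -1. LAMA5 goes from 0.89 to -2.22 in passaged cells, LAMA2 reaches 1.92, and both series use the same NP-ctrl libraries.

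Markers of other cell types were followed in the same libraries. Summed FPKM over days 3 to 10 is given as the lowest and highest value, whichever the day, for NP-ctrl, NP-IWP2 and passaged cells. For 8 endoderm and yolk sac markers the values were 21.1 and 4016, 26.8 and 1185, and 3.40 and 20.7. AFP and TTR were at 0 in all 3 libraries of day 3. For 7 mesenchyme markers the values were 166 and 4521, 152 and 1335, and 123 and 457. For 5 epicardium markers they were 8.75 and 69.2, 3.65 and 76.5, and 0.360 and 10.7. For 6 endothelium markers they were 104 and 165, 93.2 and 121, and 16.8 and 122. On day 10 alone, in the same order of arms, the endothelium sum was 119.6, 121 and 122, and the epicardium sum was 69.2, 76.5 and 0.360. In passaged cells the endoderm sum on days 3, 5, 7 and 10 was 20.1, 3.40, 16.7 and 20.7. The mesenchyme sum there was 223, 378, 457 and 123, the epicardium sum 5.31, 10.7, 1.38 and 0.360, and the endothelium sum 42.3, 16.8, 31.9 and 122. Relative to NP-ctrl, 3 of 8 endoderm, 5 of 7 mesenchyme, 3 of 5 epicardium and 1 of 6 endothelium markers drifted lower in passaged cells and 3 of 8 cardiomyocyte markers drifted higher, by the same edgeR test, where 3.64% of all genes tested drifted lower and 2.52% higher. Their part in the changes of the laminin chains was not tested. In bulk RNA, fewer cells of a type and less RNA per cell cannot be told apart.

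Other laminin chains were low next to the members. LAMA3, the alpha chain of skin, was at most 0.24 FPKM, and LAMB4 at most 0.02, and both failed the filter. LAMB3, the beta chain that pairs with LAMA3, had a day trend common to the arms of 0.51 log2 per day (SE 0.119, edgeR adjusted p 0.00669). Between days 3 and 10 its FPKM went from 0.09 to 4.86 (NP-ctrl), from 0.14 to 1.20 (NP-IWP2) and from 0.28 to 0.52 (passaged). By the arm-by-day test of edgeR it drifted lower in passaged cells relative to NP-ctrl, where 3.64% of all genes tested did. LAMB3 reached the filter limit of 1 FPKM only on day 10, so its rise is partly built in by the filter. LAMC3 was highest on day 1 at 11.4 and was lower after passaging, by -2.31 relative to NP-ctrl on the log2 scale (SE 0.366, edgeR adjusted p 0.00680) and by -1.94 relative to NP-IWP2 (SE 0.355, adjusted p 0.0264). On days 3, 5, 7 and 10 LAMC3 was at 3.76, 1.83, 2.42 and 2.78 in NP-ctrl and at 2.27, 0.35, 0.16 and 0.47 in passaged cells, with 21 counts in the lowest of these.

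Of 19 other basement membrane genes tested, 7 rose over the days and none fell, where 15.9% of all genes tested rose. The largest slopes were those of COL15A1 (0.84 log2 per day), TINAGL1 (0.39), COL4A5 (0.27), COL4A1 (0.26) and FRAS1 (0.24), which include chains of collagen IV, the second network of the basement membrane. COL15A1 and TINAGL1 did not exceed 2.57 and 1.00 FPKM. Both reached the filter limit of 1 FPKM only on day 10, so their rise is partly built in by the filter. By the arm effect between passaged cells and NP-ctrl, 3 of the 19 passed, where 4.40% of all genes tested did. SMOC1 was higher (1.9 on the log2 scale), and FREM1 (-2.66) and SPARC (-1.79), a collagen-binding glycoprotein, were lower. By the arm-by-day test of the same pair, 5 of the 19 passed, where 6.15% of genes did. NTN4 drifted higher (0.88 log2 per day) and SMOC2 (-1.13), SPARC (-0.40), FBLN1 (-0.39) and FRAS1 (-0.24) drifted lower. Against NP-IWP2 2 of the 19 passed that test, where 1.02% of genes did, with NTN4 drifting higher (0.65) and SMOC2 lower (-0.88).

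Laminin receptors were tested through 11 genes, of which 7 passed the common day trend upward, where 15.9% of all genes tested did. The largest slopes were those of ITGA1 (0.56 log2 per day), ITGA6 (0.31), ITGA3 (0.30), BCAM (0.21) and ITGA7 (0.20). The slope is an average over arms, and 4 of the 11 drifted lower in passaged cells relative to NP-ctrl, where 3.64% of all genes tested did. These were ITGA1 (-0.56 log2 per day), ITGA3 (-0.45), SDC1 (-0.39) and ITGA6 (-0.28). A lower drift need not mean a lower level. ITGA6 on days 3, 5, 7 and 10 was at 15.6, 6.85, 15.7 and 20.9 FPKM in passaged cells. In NP-ctrl it was at 3.29, 3.03, 10.9 and 22.3. ITGA1 also drifted lower relative to NP-IWP2 (-0.82), where 1.02% of genes passed in either direction. ITGA1 had 0.23, 1.28, 2.12 and 7.57 FPKM on days 3, 5, 7 and 10 in NP-ctrl, whereas NP-IWP2 had 0.17, 1.36, 6.0 and 16.8. Passaged cells had 0.73, 0.62, 1.4 and 0.90, with no such increase. ITGA7, the laminin-binding integrin of muscle, was higher after passaging, by 1.79 relative to NP-ctrl (SE 0.183, edgeR adjusted p 7.82e-04) and by 1.40 relative to NP-IWP2 (SE 0.181, adjusted p 0.00544). On days 3, 5, 7 and 10 the NP-ctrl arm had 3.01, 3.51, 6.23 and 5.78 FPKM of ITGA7, NP-IWP2 had 4.2, 4.07, 8.69 and 8.06, and passaged cells had 7.76, 10.4, 28.1 and 20.1. Passaged cells were the highest arm on every day. ITGA2 was higher as well, by 2.42 relative to NP-ctrl and 2.06 relative to NP-IWP2, at no more than 2.20 FPKM there, and SDC4 was lower relative to NP-ctrl (-1.05). By this arm effect 3 of the 11 receptors passed relative to NP-ctrl, where 4.40% of genes tested did. Relative to NP-IWP2 2 passed, where 1.33% of genes did.

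The genes most like each member were sought among 10171 protein-coding genes that reached 5 FPKM in any library, by the Pearson correlation of log2(FPKM + 1) over the 15 libraries, which share days and cultures. LAMA4 was closest to LRRC10 (r = 0.983), ABAT and MYH7B, and NID2 to DACT3 (0.983), KRCC1 and EFNA1. LAMB2 was closest to TOM1L2 (0.980), OTUD1 and KCTD21, and LAMC1 to ST3GAL1 (0.976), COL3A1 and IFIT1. LAMA5 was closest to PLXNB2 (0.95), ATP7B and CREB3L1, LAMB1 to ENPEP (0.934), AMOT and SUCO, and NID1 to RHOBTB1 (0.926), MBTPS2 and ADAM9. LAMA1 was closest to CBLN2 (0.914), UBE3B and PLPPR4, and LAMA2 to SERPINI1 (0.907), CHIC1 and SORCS3. HSPG2 had the weakest best match, TGOLN2 (0.809), followed by RGP1 and ZZEF1. No member was among the 3 genes closest to another member. Between members the correlation nonetheless reached 0.95 (LAMB2 with NID2) and 0.91 (LAMB1 with LAMC1), and it was as low as -0.19 (LAMA1 with LAMA2).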

How the data were processed

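Bulk RNA was measured in 15 libraries, grouped by arm and day from the sample labels. The authors trimmed reads with Cutadapt 1.9.1, aligned them with Hisat2 2.0.1 to hg38 and counted them per gene with HTSeq 0.6.1. The labels name a long-read library kit with these short-read tools, so length-scaled values carry that doubt, and strand use was not given in the sources used here. The deposited counts are whole numbers, and the deposited FPKM values are these counts scaled by exonic length and library total (recomputed within 0.005). DESeq2 is named among the authors' tools.

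Genes reaching 1 FPKM in any library were kept (21206 of 60605). edgeR 4.0.16 (TMM, quasi-likelihood, R 4.3.3) tested the counts of the 12 libraries of days 3 to 10 in 3 models with Benjamini-Hochberg adjustment over all genes kept: day plus arm, arm plus day as a number, and day plus arm plus arm by day. Scripts were tested on simulated data, in which the arm-by-day test missed most of the smaller changes tried, so a gene that did not pass it is not shown to be without drift. limma 3.58.1, DESeq2 1.42.0 and the alternatives of the closing section followed. Single libraries were compared on log2(FPKM + 1), with exact Clopper-Pearson 95% intervals for ratios. All 10 members are named, with other laminin chains, up to 5 genes a list past a test by size, and the 3 genes most like each member. Members and lists were chosen with earlier results of these data known. Depth was 13254723 to 20250115 counts. Some genes that this rule would name are not reported here.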

Additional observations from a re-analysis of the deposited data

Results flagged for a closer look

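The effect of passaging relative to NP-ctrl differed between days, by the arm-by-day test of edgeR, for LAMA5 (-0.41 log2 per day) and LAMB1 (-0.22 log2 per day). Passaged cells were above NP-ctrl on day 3 and below it on day 10 for both genes. The call for LAMA5 was lost without day 3 and that for LAMB1 without any 1 day.

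HSPG2 differed from NP-ctrl in opposite directions on different days, by at least 1 in log2(FPKM + 1) each way. The difference was 1.16 on day 3 and -1.01 on day 10 in passaged cells, and 1.21 on day 3 and -1.11 on day 7 in NP-IWP2. With median-of-ratios scaling the day 10 value was -0.83, short of the limit of 1, and the other values were 1.04, 1.08 and -1.05. Both comparisons rest on the same NP-ctrl libraries, and the change of direction was not tested for single days, which have 1 library each. Its arm-by-day trend over all 4 days had edgeR adjusted p values of 0.404 and 0.622.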

How the results depend on the processing

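Over the tests of single members, 630 values were recomputed under the alternatives, and none that passed changed direction. Of these, 9 no longer passed, 22 newly passed, and 37 that passed in neither setting changed sign. Called members rose from 0 to 2 (LAMA1, LAMA5) for the arm effect of passaged cells against NP-ctrl with no filter, from 2 to 4 (LAMA2 and LAMA4 added) for its arm-by-day trend with no filter and with DESeq2, and from 0 to 1 (LAMA5) for the arm-by-day trend of NP-IWP2 against NP-ctrl with no filter and with DESeq2. Leaving out 1 day gave 0 to 3 members for the arm effect of passaged cells against NP-ctrl, 1 to 1 for its arm-by-day trend (LAMA2, newly called, without day 3 and LAMA5 without each other day) and 0 to 1 (LAMA2, without day 3) for that against NP-IWP2. Over all genes, the arm effect of passaged cells against NP-ctrl passed in 933 genes, in 163 with limma, 2150 with DESeq2, 2571 with no filter, 109 with only the 2 arms and 133 to 2373 without 1 day. Against NP-IWP2 it passed in 282 genes (6 with limma to 1368 with no filter), and for NP-IWP2 against NP-ctrl in 4 (0 with limma to 372 with no filter). The arm-by-day trend passed in 1305 genes for passaged cells against NP-ctrl (380 with limma to 2188 with no filter), in 217 against NP-IWP2 (1 with limma to 800 with no filter) and in 0 for NP-IWP2 against NP-ctrl (89 with DESeq2). The day trend passed in 6994 genes, and in 3464 to 6414 without 1 day. DESeq2 called 6 members for it instead of 4.

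Members changed between single libraries depended on scaling and threshold. For passaged cells against NP-ctrl, TPM shifted the median over all genes from 0.03 to 0.28 on day 3 and from -0.09 to -0.38 on day 10. There TPM gave 4 members on day 3 (21.2% of all genes) and 1 on day 5 (17.3%), and median-of-ratios scaling gave 1 on day 3 (8.12%). A pseudocount of 0.1 gave 1 on day 5 (21.3%) and 2 on day 7 (27.3%). On day 10 TPM and the pseudocount of 0.1 each gave 6 (LAMB1 added), where 31.8% and 32.9% of all genes changed. Median-of-ratios scaling gave 5 (17.1% of all genes), with LAMA1 in and HSPG2 out. From day 0, the pseudocount of 0.1 gave 1 on day 1 (19.5% of all genes) and TPM gave 4 on day 2 (22.1%). A difference of at least 2 left 1 member (LAMA5, passaged against NP-ctrl on day 10, 3.78% of all genes). It left 0 in the other pairs of arms that had any (0.240% to 2.54% of all genes). MANE Select lengths moved 48 of 60 alpha chain shares beyond counting error, as did counts without length, put LAMB2 above LAMB1 in 1 library instead of 11 and LAMC1 above the alpha chains in 5 instead of 11. Adding LAMA3 moved none.

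The labels give no replicate numbers, and the arm effect and arm-by-day models took day as a block. With 1 library per arm and day, no difference on a single day has a replicate check. LAMA4 at 2 to 35 counts in 10 libraries limits its early values.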
